A study of Mus musculus with 78 samples.

Results

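The genes described here build the hair shaft and the sheath around it: hair keratins, keratin-associated proteins (Krtap), trichohyalins and 4 regulators of hair formation, Foxn1, Hoxc13, Msx2 and Lef1. Members were taken by symbol from the array's annotation, as every gene whose symbol begins with Krtap and 23 genes given by name. The rule found 60 genes among 18194 single-symbol genes on the array, carried by 68 probe sets. Krt85 has no single-symbol probe set, and 6 probe sets that list a Krtap symbol together with other symbols were left out. Each gene is represented by its brightest probe set. Of the 60 members, 57 passed the filter on low values (a signal above 331.198 on at least 6 arrays), among 14718 genes that did. They are 35 of 38 Krtap genes, all 9 shaft keratins, all 7 inner root sheath keratins, both trichohyalins and all 4 regulators; Krtap19-2, Krtap5-3 and Krtap6-3 did not pass.

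The tissue was flank skin from female athymic nude mice (Crl:NU(NCr)-Foxn1nu), labelled as 4 to 6 weeks old, profiled on 78 Affymetrix whole-genome mouse arrays. Age at sampling may differ between the labelled days, and its part cannot be told apart from that of the day. The 8 control arrays are labelled day 0. All other mice received Ad-VEGF-A164, an adenovirus that carries the VEGF-A164 growth factor, in the flank and in the ears, and were given no antibody (called untreated), G6 at 10 mg per kg or DC101 at 20 mg per kg. Each of these 3 arms was sampled at day 5, day 20 and day 60, with 8 arrays per group and 6 for DC101 at day 60. DC101 is an antibody against mouse VEGF receptor 2. All groups share the nude mutation of Foxn1, so there is no group with a normal Foxn1 gene, and the arrays measure its transcript and not whether its protein works. The labels do not say what the control flank received, how long before sampling the antibodies were given, or which arrays came from the same animal, so p-values measure the spread between arrays and may be too small where arrays share an animal.

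A growing hair is made in the bulb of the follicle, where matrix cells divide and then harden in concentric layers. The inner root sheath hardens around the young shaft with its own keratins, among them the type I keratins Krt25 to Krt28 and the type II keratins Krt71 to Krt73, which are embedded in trichohyalin. The shaft itself is built from type I hair keratins such as Krt31, Krt33a, Krt33b, Krt34 and Krt35 and type II hair keratins such as Krt81, Krt83 and Krt86. In the shaft cortex these filaments are packed in a matrix of small Krtap proteins that are rich in cysteine or in glycine and tyrosine. Follicles pass through growth, regression and rest, and these genes are transcribed in the growth phase. In nude mice follicles form and cycle, but the shafts are weak and bend or break at the skin surface, since Foxn1 is needed for normal hair keratin expression. Hoxc13 and Msx2 also act in the matrix and forming shaft, and Lef1 passes on Wnt signals there.

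The genes' promoters share a sequence feature that the rule did not use. RefSeq promoters (GRCm38.p6, from 250 bases before to 50 after the annotated start) were available for 52 of the 60 members. The motif TATAAA, counted on either strand (TTTATA on the other), lay in 40 of these 52 promoters, or 76.9%, against 14.2% of 27025 promoters. With its first base 26 to 38 bases before the start on the gene's own strand it lay in 28 members, or 53.8%, against 2.01% of all. This window was not in the analysis plan, which named counts over the promoters, so its shares are a description only. By class, TATAAA was found on either strand in 29 of 36 Krtap, 4 of 4 shaft keratin, 7 of 7 inner root sheath keratin, 0 of 2 trichohyalin and 0 of 3 regulator promoters. CTTTG, a core of the Lef1 and Tcf binding motif, lay in 71.2% of members and 54% of all promoters on either strand. ACGC, a core letter string of the Foxn1 motif, lay in 32.7% of members and 55.4% of all. A match is a string of letters and no evidence that a factor binds. The 70 bases before the start are printed 5′ to 3′ on the gene's strand for 11 members on which the results below turn, with TATAAA in capitals where it occurs.
Krt25 (chr11:99322952-99323021, minus strand): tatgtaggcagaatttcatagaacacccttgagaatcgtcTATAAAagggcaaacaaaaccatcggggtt
Krt28 (chr11:99374904-99374973, minus strand): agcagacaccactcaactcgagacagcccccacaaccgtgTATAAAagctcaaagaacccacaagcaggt
Krt31 (chr11:100050552-100050621, minus strand): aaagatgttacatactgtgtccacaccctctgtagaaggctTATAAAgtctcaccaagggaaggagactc
Krt33b (chr11:100029869-100029938, minus strand): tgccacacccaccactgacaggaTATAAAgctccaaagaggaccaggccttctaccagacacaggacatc
Krt34 (chr11:100041555-100041624, minus strand): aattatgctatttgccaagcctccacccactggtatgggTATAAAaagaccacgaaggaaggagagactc
Krtap8-1 (chr16:89487953-89488022, minus strand): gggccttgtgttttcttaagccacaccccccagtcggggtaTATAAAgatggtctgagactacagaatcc
Krtap11-1 (chr16:89571184-89571253, minus strand): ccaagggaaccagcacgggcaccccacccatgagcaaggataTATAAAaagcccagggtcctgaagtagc
Krtap16-3 (chr16:88962874-88962943, minus strand): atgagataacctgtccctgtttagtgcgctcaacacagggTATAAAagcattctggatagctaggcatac
Krtap15 (chr16:88828939-88829008, plus strand): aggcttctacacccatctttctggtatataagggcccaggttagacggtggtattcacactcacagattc
Tchh (chr3:93442260-93442329, plus strand): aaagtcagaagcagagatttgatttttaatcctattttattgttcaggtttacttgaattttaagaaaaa
Foxn1 (chr11:78386609-78386678, minus strand): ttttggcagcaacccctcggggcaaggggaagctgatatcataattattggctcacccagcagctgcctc
In the first 8 of these the motif's first base lies from 28 to 47 bases before the start; Krtap15, Tchh and Foxn1 lack it in these 70 bases. Of the members with a promoter entry, 19 Krtap genes lie on chromosome 16 and 10 on chromosome 11, the latter beside the 4 shaft keratins and 4 inner root sheath keratins listed there.

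Levels are given as log2(signal + 16), where signal is the deposited array intensity, and a hair gene level per array is the mean of the 57 members. In the control skin this level ran from 10.12 to 11.56 with a median of 10.61, and 42 to 50 of the 57 genes were above the filter signal on each array. Most of these genes were thus above the filter signal in flank skin of nude mice of the control group. That signal is the 40th percentile of all values and not a detection call. Over all 78 arrays the level ran from 7.40 to 13.12. Within groups the members varied far more than most genes: their median within-group standard deviation (SD) was 1.38, against 0.33 for all 14718 genes, and 33 of the 57 were among the 147 genes (1%) with the largest within-group SD. Krtap3-1, a matrix protein of the hair cortex, ranked 3rd of all genes with 2.25, and Krt33a ranked 4th with 2.03. Arrays whose title numbers are adjacent (1 and 2, 3 and 4 and so on, always of the same group) were by the median closer to each other than other arrays of their group. The median difference in hair gene level was 0.52 over 39 adjacent pairs (0.0012 to 3.39) and 1.05 over 228 other pairs (0.0026 to 4.51). This did not hold for every pair. At day 60, arrays 75 and 76 differed by 3.25 and arrays 85 and 86 by 3.39.

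**Figure D1:**
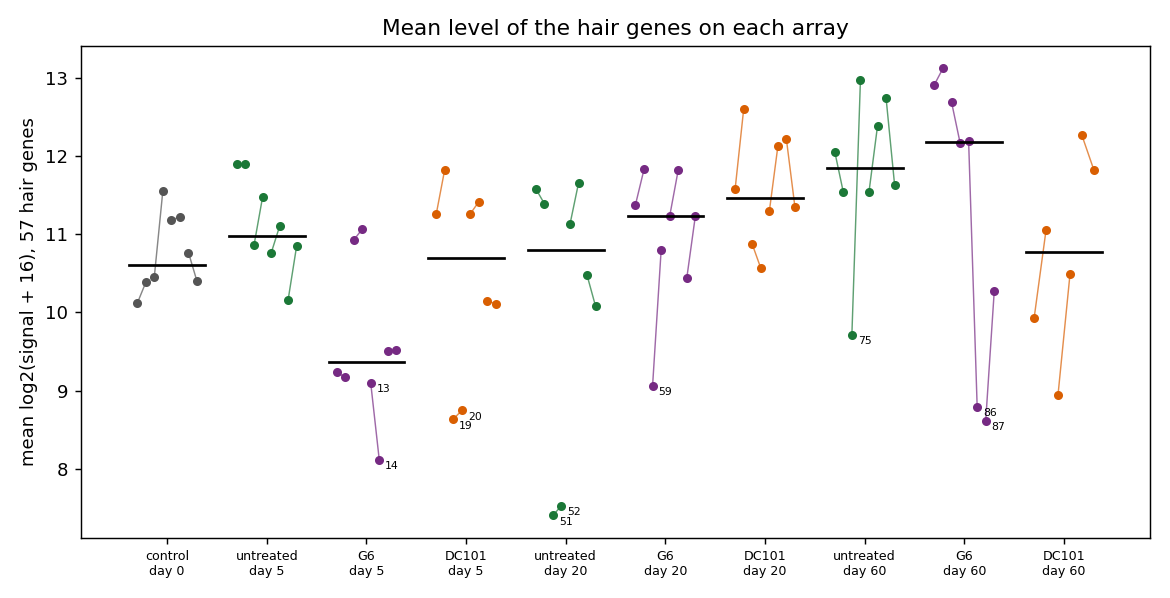
Mean log2(signal + 16) of the 57 hair genes on each array (vertical axis), by group (horizontal axis); points are arrays, thin lines join adjacent title numbers, and black bars are group medians. Arrays 51 and 52 lie at 7.40 and 7.53, and the G6 day 5 group has the lowest median, 9.37.

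Ordered by the group median, the hair gene level was lowest in G6 day 5 (9.37) and highest in G6 day 60 (12.18). In between came control (10.61), DC101 day 5 (10.70), DC101 day 60 (10.77), untreated day 20 (10.80), untreated day 5 (10.98), G6 day 20 (11.23), DC101 day 20 (11.46) and untreated day 60 (11.84). The ranges of all 10 groups overlapped with each other. G6 day 60 had both the widest range, from 8.61 to 13.12, and the highest single array. Group means follow another order where a few arrays are low: untreated day 20 had a mean of 10.15 ± 1.75 (SD, n = 8) with arrays 51 and 52 included, and G6 day 60 had 11.34 ± 1.85 (SD, n = 8).

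The lowest arrays were numbers 51 and 52 of untreated day 20. Only 13 of 57 members were above the filter signal on each, while the group's median was 48. These arrays held the lowest value of 34 of the 57 members, 16 on array 51 and 18 on array 52. On them Krt25, a type I keratin of the inner root sheath, read 9.32 and 7.83, and the group's median was 16.02. Krt33a, a cortex keratin, read 4.74 and 4.67, and its group median was 11.99. Some members stayed above the filter signal: Krt81, a cortex keratin, read 10.51 and 10.62, Krt32, a cuticle keratin, 10.07 and 10.40, Lef1 9.45 and 10.55 and Krtap12-1 10.77 and 11.05. Of the other lists the skeletal muscle list averaged 13.79 and 13.98, against a group median of 15.23, and the bulge stem cell list 10.10 and 9.53. The epidermis list averaged 13.09 on array 51 and 10.48 on array 52, around a group median of 13.02, while the endothelial list was highest in the group there, at 13.76 and 13.84. Their part in the hair gene values was not tested, and each count of hair genes called that uses untreated day 20 is given below with and without these arrays. Counts for the other lists are given with all arrays.

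Other arrays stood low in step across the classes. In DC101 day 5 arrays 19 and 20 had hair gene levels of 8.63 and 8.75, while the other 6 arrays lay between 10.11 and 11.83. In G6 day 60 arrays 86 and 87 were at 8.79 and 8.61 and array 88 at 10.27, while the other 5 lay between 12.17 and 13.12. On arrays 86 and 87 the skeletal muscle list was also low, at 10.76 and 11.26, and the epidermis list was high, at 14.69 and 14.81. In untreated day 60 array 75 was at 9.72, and its adjacent array 76 was the highest of that group at 12.97.

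The classes did not always move together. In G6 day 5, arrays 9 and 10 had regulators at 10.83 and 11.13, within the control range of 9.83 to 12.10, but Krtap genes at 8.06 and 7.81, below the lowest control array (9.12). Arrays 11 and 12 of the same group had lower regulators, 10.24 and 10.12, and Krtap genes at 10.18 and 10.38, near the top of the control range (10.30). The melanocyte list differed between these pairs too, at 10.88 and 10.70 on arrays 9 and 10 and 9.68 and 9.16 on arrays 11 and 12. On array 14, the lowest of G6 day 5, the inner root sheath keratins averaged 9.80, against a control median of 14.81, and the Krtap genes 7.58, against a control median of 9.48.

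**Figure D2:**
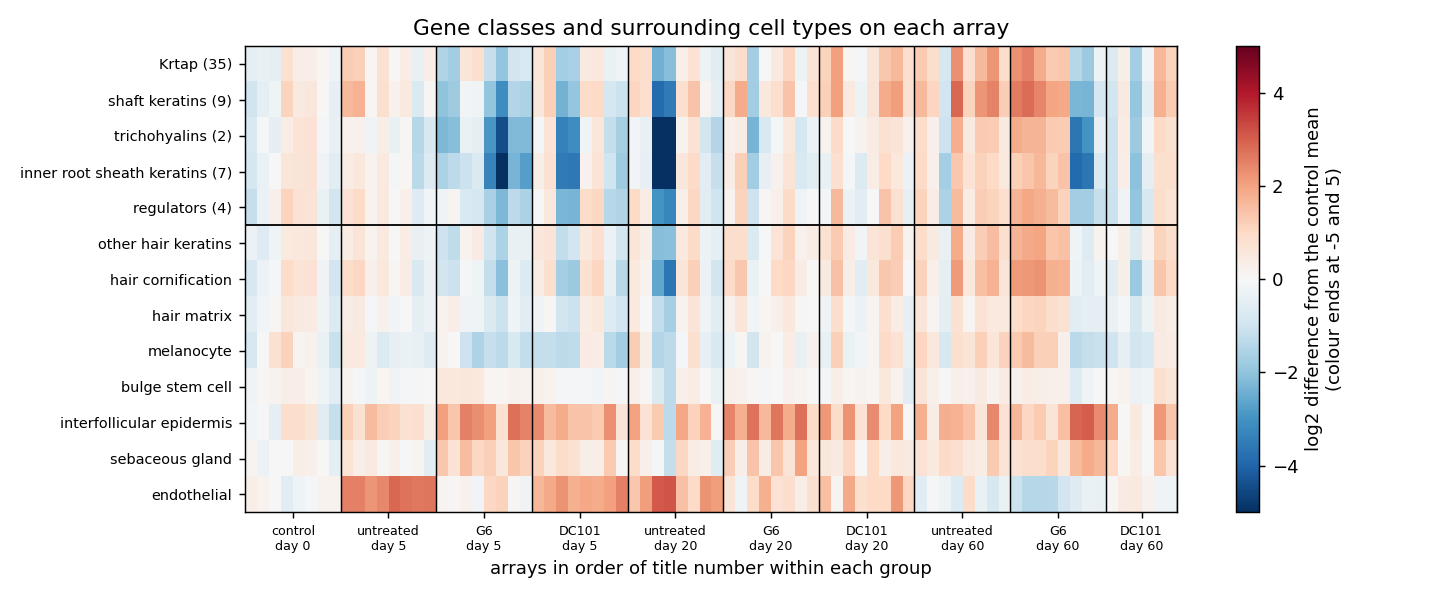
Difference of each array's mean log2 level from the control mean (colour, ending at -5 and 5) for 5 member classes (above the line) and 8 surrounding gene lists, with arrays in title order within each group. Arrays 51 and 52 are low in all 5 classes, and the interfollicular epidermis and endothelial rows follow patterns of their own.

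Across arrays most members rose and fell together. The correlation (Pearson r) of a member with the mean of the other 56 had a median of 0.91. It was above 0.9 for 34 of 57 members, between 0.7 and 0.9 for 10, and 0.7 or less for 13, which are all Krtap genes. The weakest was Krtap12-1 (0.0041), followed by Krtap5-1 (0.33), Krtap31-1 (0.44) and Krtap5-4 (0.44), the last of which was above the filter signal on 7 of 78 arrays. These were singled out after their values were seen. The points in these correlations are 78 arrays that share groups and adjacent numbers, and r is given as a description.

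Lists of genes from the same and other skin compartments were set beside this level, again as descriptions over 78 arrays. The hair keratins outside the rule (3 of 7 listed genes tested) had r = 0.95 and Spearman rho = 0.95 with the hair gene level. The list of hair cornification and cross-linking enzymes and structural proteins (12 of 14 tested) had r = 0.93, the hair matrix signalling list (24 of 26 tested) r = 0.87 and the melanocyte list (12 of 13 tested) r = 0.76. Pigment cells of the bulb pass melanin into the growing shaft. Lists of other follicle cells lay in between: r was 0.55 for bulge stem cells (0.71 on deviations from group means) and 0.39 for the outer root sheath (0.49 on deviations). By contrast r was 0.017 for interfollicular epidermis (21 of 22 tested), 0.029 for sebaceous gland and 0.095 for cell cycle genes, and the dermal papilla list had -0.13. The endothelial list had r = -0.31, and -0.58 once each array's deviation from its group mean was used. The ratio of the 3′ to the 5′ probe sets of Actb, a measure of RNA integrity, had r = 0.20, and that of Gapdh -0.066. Leaving out the 2 arrays farthest from the median left r at 0.92 for cornification, 0.76 for melanocytes and -0.20 for the endothelial list. It lowered r to 0.42 for bulge stem cells and 0.28 for the outer root sheath.

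**Figure D3:**
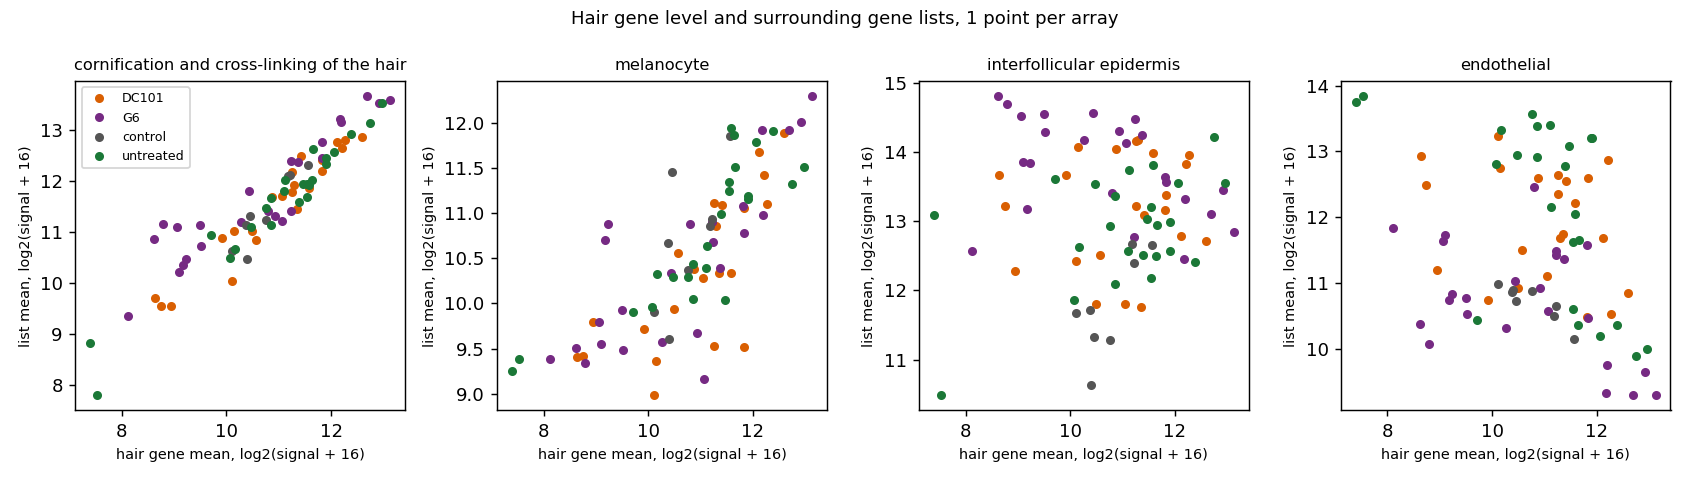
Mean log2(signal + 16) of 4 gene lists (vertical axes) against the mean of the 57 hair genes (horizontal axes), 1 point per array, coloured by arm. The cornification points lie along a line (r = 0.93) and the epidermis points do not (r = 0.017).

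The 10 other genes whose pattern over 78 arrays was most like the hair gene level were Gprc5d (r = 0.97), Ly6g6g (0.97), Vsig8 (0.96), Krt82 (0.96), Crym (0.95), Ctse (0.95), Cybrd1 (0.95), S100a3 (0.95), Calhm4 (0.95) and Fbp1 (0.95). Gprc5d encodes an orphan receptor, Krt82 a hair cuticle keratin and S100a3 a calcium-binding protein of the cuticle. Predicted and clone genes were passed over.

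The level in untreated mice was first compared with control skin, which asks how the hair genes stand at each labelled day in mice given the adenovirus. The labels do not state whether the days count from the injection of the virus. At day 5, 1 of 57 members passed the test (limma, adjusted p under 0.05), while 52.8% of all genes tested did (27.9% higher and 24.9% lower). The count was 8 with only the compared groups in the model and 3 with array weights, and 0 with the mean of probe sets. It was 2 with an offset of 64, and 2 without arrays 1 and 2, 7 and 8 or control arrays 97 and 98. Counts under alternatives, here and below, are given without the share of all genes called under the same setting. A changed count may thus follow the calls over all genes. The median difference of the members was 0.34 on the log2 scale and that of all genes 0.046. The inner root sheath keratins differed by a median of 0.03. Krt33a, a cortex keratin, ran from 10.00 to 12.74 (median 11.19) in control and from 11.11 to 13.99 (median 12.78) at day 5, and the groups overlapped.

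At day 20, 5 of 57 members passed, 1 higher and 4 lower, against 41.2% of all genes (22.7% higher and 18.5% lower). The 4 lower genes were Krt25 (-2.16 ± 0.75, standard error (SE); adjusted p = 0.015), Tchh (-2.13 ± 0.69, adjusted p = 0.010), Krt27 (-1.98 ± 0.76, adjusted p = 0.030) and Krt71 (-1.77 ± 0.73, adjusted p = 0.0445, limma), all of them genes of the inner root sheath. Krt25 ran from 15.73 to 16.76 in control and from 7.83 to 16.76 at day 20. Tchh, the trichohyalin gene, ran from 15.67 to 16.47 in control and from 7.69 to 16.18 at day 20. The groups overlapped, and the low end consists of arrays 51 and 52. Without these arrays 0 of 57 members passed and the median difference went from -0.58 to 0.27. Without arrays 49 and 50 the count was 8, without 53 and 54 it was 11, and without control arrays 97 and 98 or 99 and 100 it was 3 or 2. It was 2 with array weights, 0 with only the compared groups in the model and 1 with adjacent arrays averaged.

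At day 60, 13 of 57 members were higher than in control skin and 0 lower, a share of 22.8%, against 35.6% of all genes called (18.8% higher and 16.9% lower). The median difference was 0.90 over the members and 0.08 over all genes, and all 57 differences were positive. By class, 10 of 35 Krtap genes and 3 of 9 shaft keratins rose, and 0 of 7 inner root sheath keratins, 0 of 2 trichohyalins and 0 of 4 regulators passed. Krt33b, a cortex keratin, ran from 7.12 to 10.58 (median 9.56) in control and from 9.71 to 13.40 (median 12.05) at day 60. All 8 day 60 arrays were above the control mean, and the difference was 2.72 ± 0.51 (SE, adjusted p = 2.41e-05). Krtap21-1, a small Krtap protein, ran from 8.96 to 10.90 in control and from 9.38 to 13.29 at day 60, and rose by 2.29 ± 0.57 (SE, adjusted p = 0.0011, limma). Krtap16-3 was dim: its control arrays ran from 4.91 to 6.91, below the filter level of 8.44, and its day 60 arrays from 6.27 to 10.03, with a fitted difference of 2.41 ± 0.57 (SE, adjusted p = 0.00064). Its mean was below the filter level in every group named here, so its differences are not given as folds. Over all groups Krtap16-3 was above the filter signal on only 9 arrays, none of them a control array. It was thus tested because of high arrays outside the control group, and these include the highest untreated day 60 array. The filter therefore favoured a rise in this group, and the calls of Krtap16-3 rest largely on readings below the filter level. Krt32 and Krt81 rose by 1.05 ± 0.39 and 1.20 ± 0.48 (SE). Of the surrounding lists, 4 of 12 cornification genes rose (Mt4 by 1.90, Hephl1 by 1.48), as did 4 of 24 hair matrix genes, 2 of 12 melanocyte genes and 10 of 21 epidermis genes. Rises were also called for 5 of 6 outer root sheath, 4 of 7 sebaceous, 7 of 14 cell cycle and 6 of 15 dermal papilla genes. In the other direction 1 dermal papilla gene, 6 of 15 skeletal muscle genes and 4 of 7 adipocyte genes fell. The Actb 3′ to 5′ ratio had a median of 1.88 at day 60 and 1.31 in control. The count was 20 with array weights and 22 with only the compared groups in the model. With the RNA ratios in the model 4 members passed, 7 did when adjacent arrays were averaged, and 6 did without arrays 79 and 80 or without the last adjacent pair of control arrays. The control group differed from all others in a further way: the mammary gland list averaged 10.09 to 14.61 there and 6.82 to 9.32 on the other 70 arrays, and all 6 of its genes were lower than control at day 5, day 20 and day 60. The adipocyte list mean ran from 12.17 to 14.18 in control and from 10.55 to 13.62 at day 60. Their part in the comparisons with control was not tested.

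**Figure D4:**
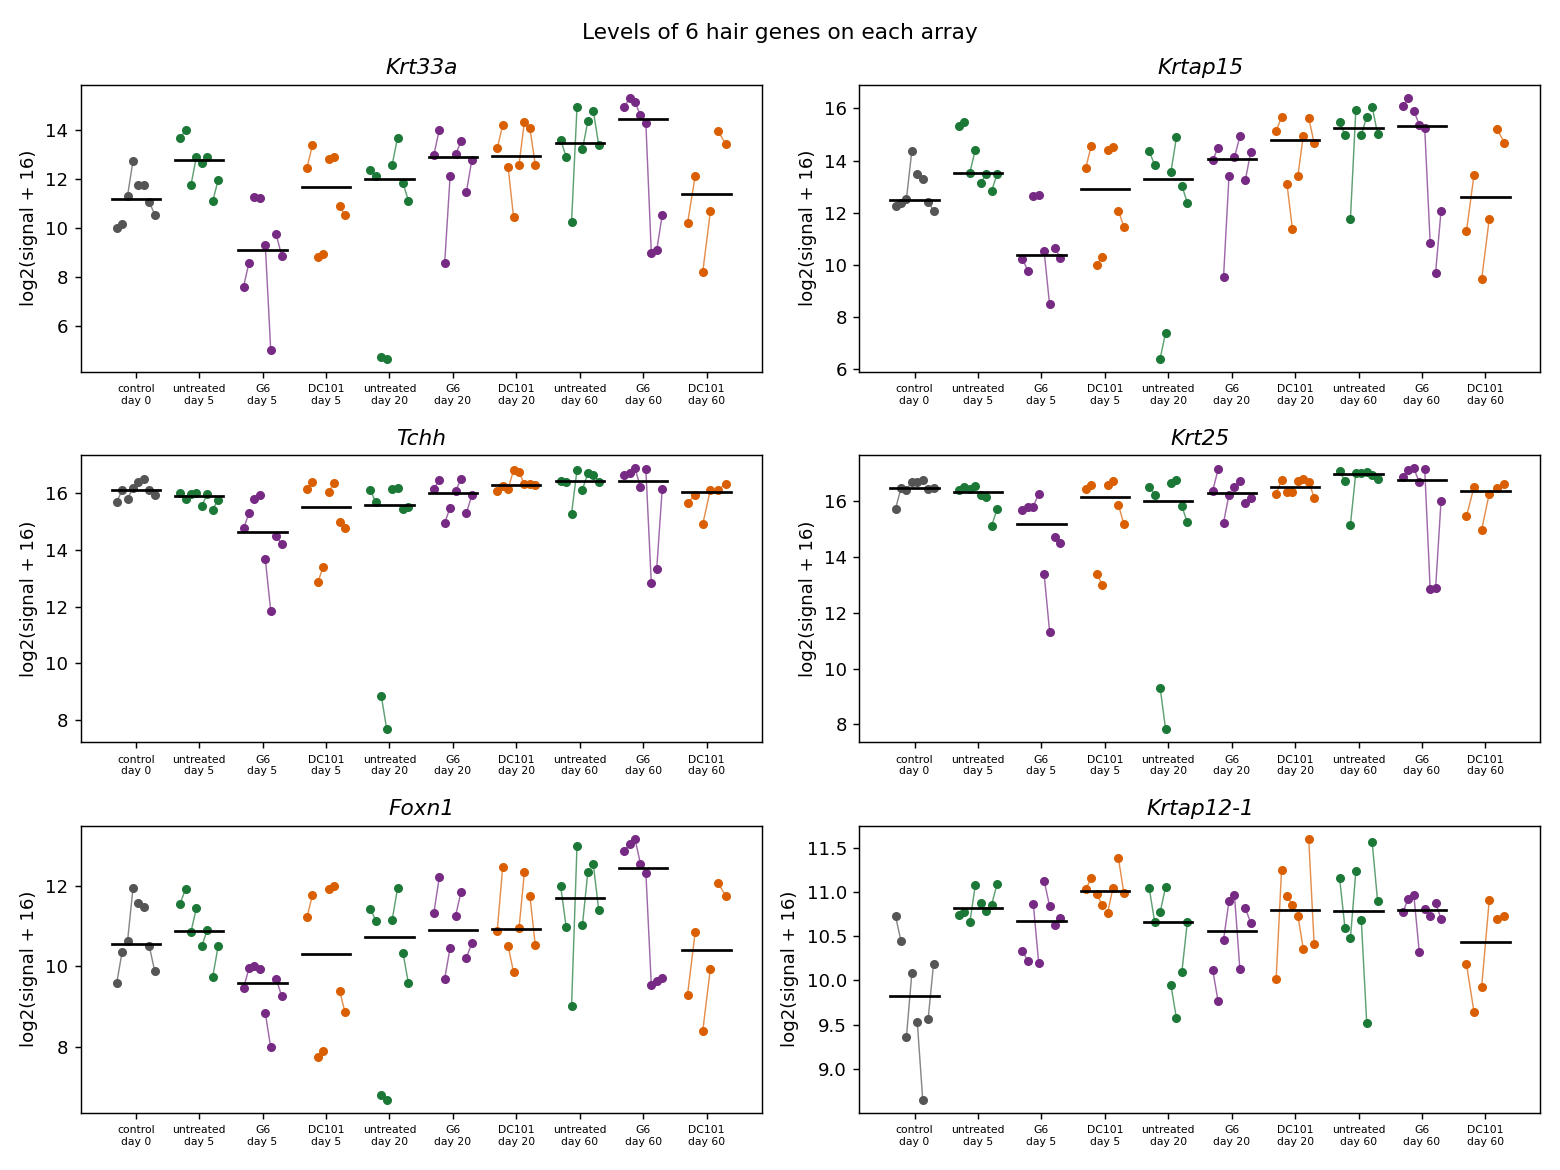
Level of 6 hair genes on each array as log2(signal + 16) (vertical axes, with different ranges), by group; thin lines join adjacent title numbers and black bars are medians. Krt33a, Krtap15, Tchh, Krt25 and Foxn1 are low on the same arrays, including the 2 lowest points of untreated day 20, and Krtap12-1 is not.

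Within the untreated arm, the members were lower at day 20 than at day 5 for 50 of 57 genes, but 1 passed the test, Tchh (-1.85 ± 0.69, SE, adjusted p = 0.048, limma), against 20.2% of all genes (10.4% higher and 9.8% lower). Without arrays 51 and 52, 0 members passed, the Tchh difference was 0.037 and the median of the members was -0.09. The count was also 0 without any 1 adjacent pair of the day 5 arrays, and it was 7 without arrays 49 and 50 and 16 without arrays 53 and 54. No filter, array weights, adjacent arrays averaged or the RNA ratios in the model each gave 0.

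From day 20 to day 60 members rose more widely: 28 of 57 passed, all higher, against 25.7% of all genes called (12% higher and 13.8% lower). They were 15 of 35 Krtap genes, 6 of 7 inner root sheath keratins, 4 of 9 shaft keratins, both trichohyalins and 1 regulator, Foxn1. Tchhl1, a trichohyalin-like gene, ran from 4.69 to 13.11 (median 10.99) at day 20 and from 10.51 to 14.70 (median 12.96) at day 60, and rose by 3.10 ± 0.88 (SE, adjusted p = 0.0057). Krt33a rose by 3.04 ± 0.99 and Krtap22-2 by 2.99 ± 0.94 (SE). Krtap22-2 was dim: over all groups it was above the filter signal on only 27 arrays. Its median over all arrays was 7.55, below the filter level of 8.44, so its difference is not given as a fold. Foxn1 ran from 6.70 to 11.94 at day 20 and from 9.02 to 12.98 at day 60, and rose by 1.65 ± 0.64 (SE, adjusted p = 0.047, limma). In every case the groups overlapped. This count rested on arrays 51 and 52. Without them the median difference fell from 1.83 to 0.63 and 1 member, Krt33b (1.54 ± 0.54, SE, adjusted p = 0.047), passed. Without arrays 79 and 80 of day 60 the count was 12, without arrays 55 and 56 of day 20 it was 18, and with adjacent arrays averaged it was 3. It was 10 with only the compared groups and 13 with the RNA ratios in the model. On the same comparison 10 of 11 endothelial genes fell, and 7 of 21 epidermis and 4 of 12 melanocyte genes rose.

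From day 5 to day 60, which does not use day 20, 5 of 57 members rose and 0 fell, against 39.3% of all genes called (19.7% higher and 19.6% lower). They were Krtap16-3 (2.50 ± 0.57, SE, adjusted p = 0.00027), Krtap22-2 (2.35 ± 0.94), Krtap1-5 (2.27 ± 0.58), Krt33b (1.91 ± 0.51) and Krtap28-13 (0.46 ± 0.18). Krtap1-5 was below the filter level on all 8 arrays at day 5 and at least 1.82-fold above that level on average at day 60. Krtap16-3 was above the filter signal on only 9 arrays over all groups, among them the highest of untreated day 60. It thus passed the filter partly through the group where it is high, and its mean was below the filter level on both days. Krtap22-2 was above the filter signal on only 27 of 78 arrays. The inner root sheath keratins differed by a median of 0.58 and 0 of 7 passed by limma. Without arrays 5 and 6, 7 and 8, 77 and 78 or 79 and 80 the count was 3, as it was with the RNA ratios in the model. It was 13 with array weights and 9 with only the compared groups.

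The clearest difference of an antibody arm was in G6 at day 5. Against untreated mice of the same day, 22 of 57 members were lower and 1 was higher, a share of 40.4%, against 31.8% of all genes called (16.8% higher and 15% lower). The median difference was -1.44 over the members and 0.014 over all genes, and 52 of 57 were negative. By class, 11 of 35 Krtap genes, 6 of 9 shaft keratins, 4 of 7 inner root sheath keratins and 1 of 2 trichohyalins fell, and 0 of 4 regulators passed.

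Krt33a ran from 11.11 to 13.99 (median 12.78) in untreated mice and from 5.04 to 11.26 (median 9.10) under G6. The ranges overlapped only between the lowest untreated and the highest G6 arrays, all 8 G6 arrays lay below the untreated mean, and the difference was -3.66 ± 0.99 (SE, adjusted p = 0.0029, limma). Krt31, a cortex keratin, ran from 12.18 to 14.76 untreated and from 8.66 to 11.83 under G6. The groups did not overlap, and Krt31 fell by 2.94 ± 0.85 (SE, adjusted p = 0.0052). Among Krtap genes Krtap15 ran from 12.83 to 15.48 untreated and from 8.49 to 12.69 under G6, again without overlap, and fell by 3.30 ± 0.93 (SE, adjusted p = 0.0043). Krtap19-5 was the other member whose groups did not overlap (-3.38 ± 0.93, SE). The share of all genes without overlap was not computed, so these 3 members are a description and no mark of the hair genes. Krtap11-1, also of the cortex matrix, fell by 3.51 ± 0.92 and Krtap14 by 2.99 ± 0.80 (SE).

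In the inner root sheath Krt72 ran from 12.14 to 14.57 untreated and from 9.09 to 12.80 under G6, and fell by 2.93 ± 0.82 (SE, adjusted p = 0.0039). Krt26, Krt28 and Krt73 also fell, by 2.77 ± 0.90, 2.71 ± 0.86 and 2.17 ± 0.76 (SE). Others of this layer did not pass: Krt25 differed by -1.46 ± 0.75 (SE, adjusted p = 0.13) and Tchh by -1.31 ± 0.69 (adjusted p = 0.15, limma). Tchhl1 fell by 2.42 ± 0.88 (SE).

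The regulators had negative differences that did not pass. Foxn1 ran from 9.74 to 11.91 untreated and from 7.99 to 10.02 under G6 and differed by -1.53 ± 0.64 (SE, adjusted p = 0.058). Msx2 differed by -1.41 ± 0.58 (adjusted p = 0.056), Lef1 by -0.98 ± 0.42 (adjusted p = 0.067) and Hoxc13 by -1.18 ± 0.63 (adjusted p = 0.15, limma). The other Foxn1 probe set had a median of 9.48 untreated and 8.88 under G6. The 1 member that rose, Krtap28-13, ran from 8.04 to 8.51 untreated and from 8.37 to 8.98 under G6 (0.44 ± 0.18, SE, adjusted p = 0.049), close to the filter level of 8.44.

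Other lists moved in the same comparison. Of the cornification genes 5 of 12 fell, among them Gprc5d by 3.01 and Padi3, a hair peptidylarginine deiminase, by 2.72, and 1 rose; 3 of 12 melanocyte genes fell (Gpr143 by 1.65). Cell cycle genes fell for 13 of 14 and endothelial genes for 10 of 11. On the other side 9 of 21 epidermis genes, 5 of 7 sebaceous and 10 of 15 skeletal muscle genes rose, and Fgf18, a bulge gene, rose by 2.33. Not all follicle lists fell: of 24 hair matrix genes 2 fell and 1 rose, with a median of -0.12. Of 6 outer root sheath genes 0 passed by limma (median 0.55), and of 15 dermal papilla genes 6 rose and 2 fell. The epidermis list mean ran from 12.57 to 14.55 under G6 and from 12.09 to 13.37 in untreated skin, and the endothelial list mean from 10.52 to 11.84 and from 12.91 to 13.57. In a bulk sample fewer cells of a type and less RNA per cell cannot be told apart, and the part of these lists in the hair gene result was not tested. The Actb ratio ran from 1.32 to 2.43 under G6 and from 1.36 to 1.69 untreated. It was highest on arrays 13 and 14, at 2.35 and 2.43. The Gapdh ratio ran from 0.90 to 1.55 under G6 and from 0.91 to 1.10 untreated. With the RNA ratios in the model 36 members fell. Without arrays 13 and 14, the lowest, 11 fell and 1 rose, and the median was -1.06. Among the 11 were Krt31 (-2.54), Krt33a (-3.07), Krt72 (-2.55) and Krtap15 (-2.91), and the 1 that rose was Krtap1-5 (1.74). Without untreated arrays 1 and 2 the count of calls was 12, without arrays 3 and 4 it was 15, without the highest G6 arrays, 11 and 12, it was 37, and with adjacent arrays averaged 6 fell. The count was 44 with array weights and 39 with only the compared groups in the model. These counts are not set beside the share of all genes under the same settings.

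At day 20, G6 against untreated gave 0 calls of 57 by limma, with 6 members at an unadjusted p under 0.05 and 1 call with array weights, against 10% of all genes (3.97% higher and 6.03% lower). The median difference was 0.80. It was -0.03 without arrays 51 and 52, and the count by limma was again 0. Tchh had the smallest adjusted p (1.90 ± 0.69, SE, adjusted p = 0.066, limma). Without arrays 49 and 50, 53 and 54 or 55 and 56 the count was 4, 10 or 1. In the same comparison 10 of 21 epidermis genes, 5 of 6 outer root sheath genes (Krt6b by 2.55) and 4 of 12 cornification genes (Gsdma by 1.93) rose. The difference between the G6 effects at day 20 and day 5 was tested directly, a contrast added after the data were seen, and 21 of 57 members passed (9.19% of all genes did, 4.09% positive and 5.1% negative), all in the positive direction. Krt33a had the largest of these, 5.59 ± 1.40 (SE, adjusted p = 0.0075); without arrays 51 and 52 it was the 1 member that passed (3.69 ± 1.23), and without arrays 13 and 14, 8 did. Without arrays 1 and 2 or 61 and 62 the count was 6, and with adjacent arrays averaged it was 0.

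At day 60, G6 gave 0 calls of 57 by limma, with 2 at an unadjusted p under 0.05 and 1 call with array weights, against 11.9% of all genes (2.62% higher and 9.3% lower). The group split widely: Krt34, a cortex keratin, ran from 7.51 to 15.39 (median 14.32) under G6 and from 10.78 to 15.29 (median 13.69) untreated. Krt33b had the smallest adjusted p (-1.37 ± 0.51, SE, adjusted p = 0.065). The median difference was -0.46 with all arrays and 0.81 without arrays 86, 87 and 88, a choice made after the data were seen, when Krtap19-4 (1.12 ± 0.31) and Krtap26-1 (1.16 ± 0.33) passed. Without arrays 75 and 76, 81 and 82 or 87 and 88 the count was 1, 3 or 2. The change of the G6 effect from day 20 to day 60 gave 0 calls by limma and 0 with array weights (8 at an unadjusted p under 0.05), against 0.0747% of all genes (0.0611% positive and 0.0136% negative). The count was also 0 without arrays 51 and 52, and the median of the members went from -1.26 to -0.39.

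DC101 at day 5 gave 0 calls of 57 by limma and 0 at an unadjusted p under 0.05, and 3 with array weights, against 11.8% of all genes (4.65% higher and 7.11% lower). The median difference was -0.76, and 52 of 57 were negative. Krt31 ran from 9.84 to 14.50 (median 12.37) under DC101 and from 12.18 to 14.76 (median 13.45) in untreated mice (-1.28 ± 0.85, SE, adjusted p = 0.34, limma). Without arrays 21 and 22 the count was 1. The low end again came from an adjacent pair, arrays 19 and 20.

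At day 20, 2 of 57 members were higher under DC101, against 7.68% of all genes called (2.45% higher and 5.24% lower). Tchh ran from 16.06 to 16.80 under DC101 and from 7.69 to 16.18 untreated and rose by 2.41 ± 0.69 (SE, adjusted p = 0.021), and Krtap21-1 rose by 1.72 ± 0.57 (adjusted p = 0.048, limma). At an unadjusted p under 0.05 there were 42, and the median difference was 1.51. Without arrays 51 and 52, 0 passed and the median was 0.56; without untreated arrays 49 and 50 the count was 19 and without 53 and 54 it was 23. It was 1 without arrays 55 and 56, 65 and 66 or 71 and 72, 0 without 69 and 70 and 0 with adjacent arrays averaged or only the compared groups in the model. Quantile normalization gave 4, and array weights, no filter or an offset of 64 gave 1.

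At day 60, 2 of 57 members were lower under DC101 and 0 higher, against 11.6% of all genes called (4.65% higher and 6.91% lower). Krt33b ran from 9.26 to 11.05 (median 9.96) under DC101 and from 9.71 to 13.40 (median 12.05) untreated. All 6 DC101 arrays lay below the untreated mean, and Krt33b fell by 1.99 ± 0.55 (SE, adjusted p = 0.012). Krtap16-3, dim in both groups, fell by 2.26 ± 0.62 (SE, adjusted p = 0.011, limma). Over all groups Krtap16-3 was above the filter signal on only 9 arrays, among them the highest of untreated day 60. It thus passed the filter partly through the group where it is high. The differences were negative for 56 of 57 members with a median of -1.001, and no regulator passed (Foxn1 -1.15 ± 0.69, SE). Without arrays 93 and 94, the highest DC101 arrays, 15 members fell, and with array weights 30 did. With the RNA ratios in the model, with adjacent arrays averaged, or without arrays 79 and 80, 89 and 90 or 91 and 92, 0 did. The Actb ratio ran from 1.17 to 1.56 under DC101 and from 1.58 to 2.57 in untreated mice. Beside this, 12 of 14 cell cycle genes fell (Mki67 by 1.96), 3 of 12 melanocyte genes fell (Tyrp1 by 2.10) and 2 of 12 cornification genes fell (Mt4 by 2.56).

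The DC101 effects also differed between days. From day 20 to day 60 the change in effect, a contrast added after the data were seen, passed for 24 of 57 members, all negative, against 18.2% of all genes called (8.91% positive and 9.31% negative). Krtap15 (-4.60 ± 1.37, SE, adjusted p = 0.014) and Krt33a (-4.60 ± 1.46, adjusted p = 0.021, limma) had the largest. Without arrays 51 and 52, 2 passed, Krt33b (-2.69 ± 0.77) and the dim Krtap16-3 (-2.92 ± 0.87). With array weights 41 passed, with the RNA ratios in the model 0, with adjacent arrays averaged 1, and without arrays 91 and 92 of DC101 day 60, 2. Leaving out other pairs gave from 8 (arrays 89 and 90) to 40 (arrays 93 and 94). From day 5 to day 20, 0 passed by limma, with 43 at an unadjusted p under 0.05 and 12 with array weights, against 1.8% of all genes (0.904% positive and 0.897% negative). The count stayed at 0 without arrays 51 and 52, and the median of the members went from 2.29 to 1.29. Without arrays 21 and 22 the count was 7 and without 53 and 54 it was 11. All 4 of these changes share the untreated arrays of the days they use.

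**Figure D5:**
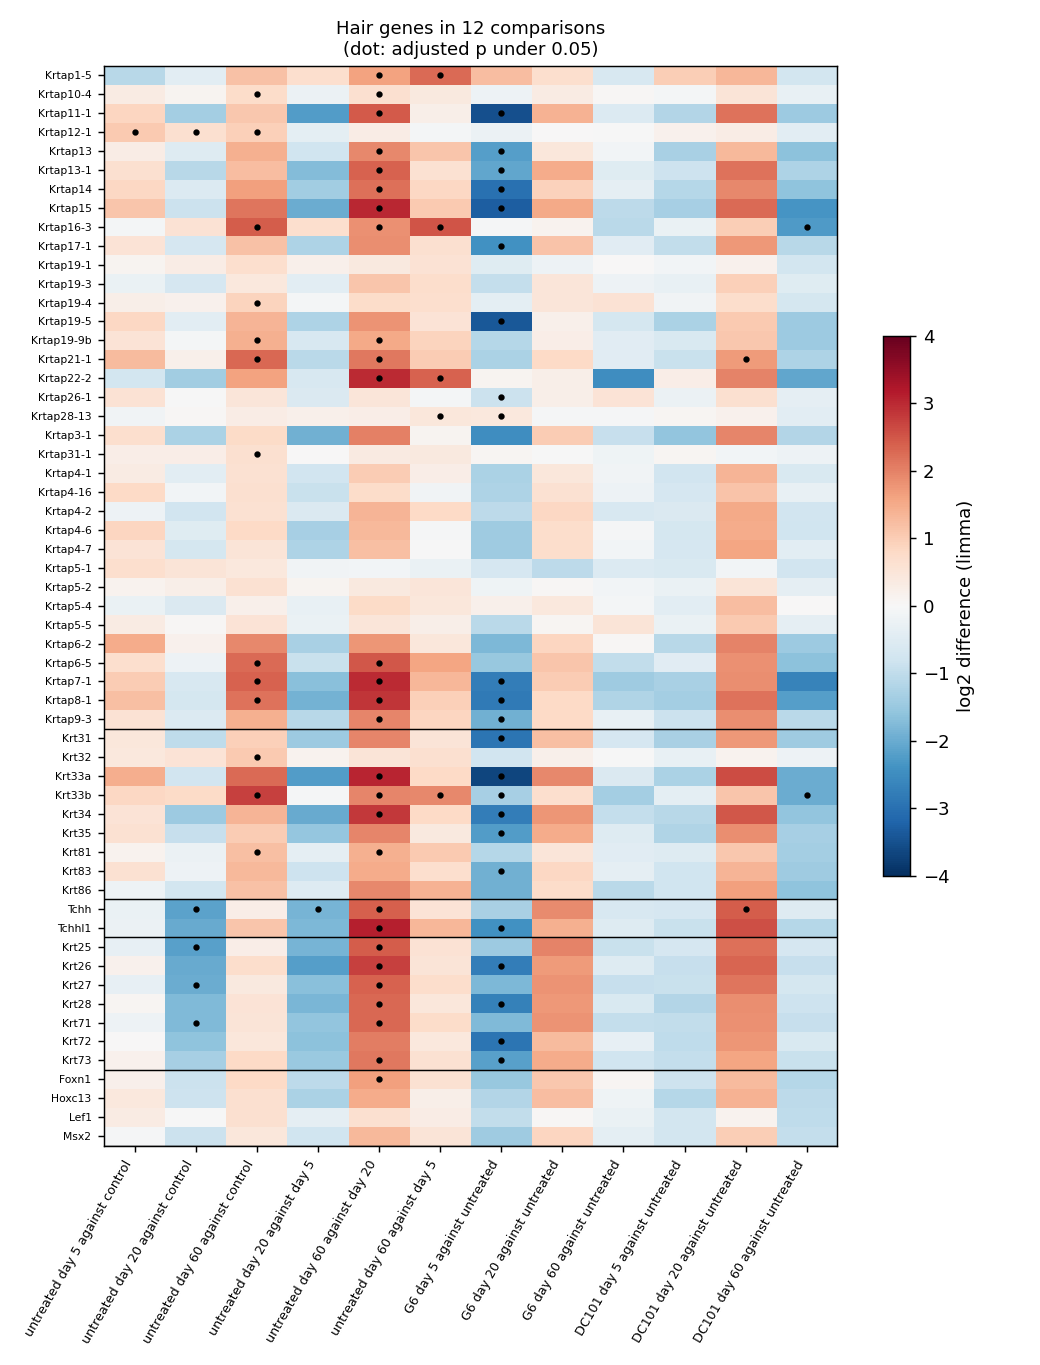
Difference on the log2 scale (colour) of the 57 hair genes (rows, by class from the top: Krtap, shaft keratins, trichohyalins, inner root sheath keratins, regulators) in 12 comparisons (columns); dots mark a limma adjusted p under 0.05. The column for untreated day 60 against day 20 holds 28 dots, all rises, and the column for G6 day 5 holds 22 falls and 1 rise.

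Krtap12-1 departed from the other members. Its brightest probe set ran from 8.65 to 10.73 (median 9.82) in control and from 10.66 to 11.09 (median 10.82) at day 5 in untreated mice, where it was the 1 member that passed. Against control it was higher by 1.04 ± 0.22 (SE, adjusted p = 5.73e-05) at day 5. The difference was 0.66 ± 0.22 (adjusted p = 0.0135) at day 20, and 0.95 ± 0.22 (adjusted p = 0.00057, limma) at day 60. Without arrays 51 and 52, which include the highest of the day 20 group, the day 20 difference was 0.51 (adjusted p = 0.093, limma) and no longer passed. Its other probe set gave another pattern: it had r = 0.86 with the hair gene level over 78 arrays, where the brightest had 0.012, and medians of 9.03 in control, 8.88 at day 5, 8.73 at day 20 and 9.94 at day 60. With the mean of both probe sets the day 5 difference was 0.46 (adjusted p = 0.095). The day 20 difference was 0.24 (adjusted p = 0.44), and that at day 60 was 0.93 (adjusted p = 0.0014, limma). The rise at day 60 passed on the brightest probe set and on the mean, and the earlier rises on the brightest probe set alone. The other genes with more than 1 probe set past the filter agreed more closely: for Foxn1 the r with the hair gene level was 0.95 and 0.85, for Msx2 0.91 and 0.67, for Lef1 0.76 and 0.70 and for Krtap5-1 0.34 and 0.59. Krtap genes form families of similar sequence, and probe sets may read more than 1 of them.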

How the data were processed

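The deposited values are MAS5 signal (an intensity, linear scale), made by the authors in GCOS 1.3 per the submitters' processing notes. On every array the trimmed mean, over the central 96% of values, equals 1500; array medians run from 454.85 to 582.58. Arrays have no counting depth, so their number limits the precision. Signals were used as log2(signal + 16). The filter level, 331.198, is the 40th percentile of all values, and the brightest probe set stood for each of 14718 genes. One limma model (3.58.1, R 4.3.3) with eBayes and an intensity trend was fitted over 10 groups, with two-sided tests and Benjamini-Hochberg adjustment over all genes at 0.05. On simulated data the model recovered 90% of 100 genes shifted by 1 and called 12 unchanged genes. The simulated arrays and genes were independent of each other, so this does not cover arrays that share an animal. The shifted genes were drawn from all genes tested, whose median within-group SD was 0.33, against 1.38 for the members. The share recovered thus does not hold for the hair genes, and the power to call a change in them was not measured. Members and gene lists were chosen with earlier results of these data known. Named genes are every member that is no Krtap, the 8 brightest and 4 most variable Krtap genes, the 4 largest called rises and falls per comparison, the 2 largest called changes per list and the 10 genes most like the hair gene level. Alternatives were other offsets, no filter, quantile normalization, array weights, averaged probe sets, averaged adjacent arrays, a fit to the compared groups alone, RNA ratios as covariates and arrays left out. Title numbers are not shared between groups. Protein features were not analysed here.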

Additional observations from a re-analysis of the deposited data

Results flagged for a closer look

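In groups of 6 to 8 arrays, 350 sets of values (35 measures in 10 groups) were examined for an array far from the others, and 30 were marked; chance gives about 18, and the measures are not independent of each other. In untreated day 60 the marked array was 75 each time, as the lowest: the hair gene level was 9.72, the inner root sheath keratins 13.21, the regulators 9.42 and the shaft keratins 10.42. Its inner root sheath genes read 15.16 for Krt25, 12.16 for Krt26, 14.32 for Krt27, 12.53 for Krt28, 13.70 for Krt71, 11.32 for Krt72, 13.28 for Krt73 and 15.27 for Tchh. Its shaft genes read 11.08 for Krt31, 10.26 for Krt33a, 10.78 for Krt34, 10.63 for Krt35, 11.23 for Krtap8-1 and 11.76 for Krtap15, and its regulators 10.30 for Hoxc13, 8.94 for Msx2 and 9.43 for Lef1. In G6 day 20 array 59 was lowest, with 8.26 for Tchhl1, 8.59 for Krt33a, 9.03 for Krt33b and 9.56 for Krtap15, and array 62 was highest for Krtap28-13 (8.87). In control skin array 95 was lowest for Krt25 (15.73), and array 98 was highest for Krtap8-1 (13.87) and Krtap21-1 (10.90). In G6 day 60 array 84 was lowest for Krtap12-1 (10.32). Arrays 51 and 52 were not marked, since each has the other beside it.

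Effects that differed between days by a test of the difference were those of G6 (day 20 against day 5, 21 members) and DC101 (day 60 against day 20, 24 members); both include arrays 51 and 52, and without them 1 and 2 members passed.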

How the results depend on the processing

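Counts are given here without the share of all genes called under the same alternative, so they are no result about the hair genes alone. The number of members called differed from the reported one by more than 1.5 times under these alternatives. With array weights it was 3, 2 and 20 for untreated day 5, 20 and 60 against control, 0 for day 20 against day 5, 13 for day 60 against day 5, 44, 1 and 1 for G6 at day 5, 20 and 60, and 3, 1 and 30 for DC101. With only the groups compared in the model it was 8, 0 and 22 against control, 10 for day 60 against day 20, 9 for day 60 against day 5, 39 for G6 day 5 and 0 for DC101 day 20. With adjacent arrays averaged it was 1 and 7 for day 20 and 60 against control, 0 for day 20 against day 5, 3 for day 60 against day 20, 6 for G6 day 5, and 0 for DC101 day 20 and day 60. With the RNA ratios as covariates it was 4 for day 60 against control, 0 for day 20 against day 5, 13 for day 60 against day 20, 3 for day 60 against day 5, 36 for G6 day 5 and 0 for DC101 day 60. Without arrays 51 and 52 it was 0 for day 20 against control, 0 for day 20 against day 5, 1 for day 60 against day 20 and 0 for DC101 day 20; Tchh in day 20 against day 5 turned to 0.037 (from -2.59 to 0.037 over the pairs left out). Without arrays 13 and 14 it was 12 for G6 day 5, and without arrays 86, 87 and 88 it was 2 for G6 day 60. An offset of 64 gave 2 for day 5 against control and 1 for DC101 day 20, no filter 0 for day 20 against day 5 and 1 for DC101 day 20, quantile normalization 4 for DC101 day 20, and the mean of probe sets 0 for day 5 against control. The median of the members changed sign for day 5 against control with the RNA ratios (-0.21) and for G6 day 60 with array weights (0.33).

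Leaving out each adjacent pair in turn, added after the data were seen, gave 1 to 2, 0 to 11 and 6 to 16 calls for untreated day 5, 20 and 60 against control, 0 to 16 for day 20 against day 5, 1 to 39 for day 60 against day 20 and 3 to 6 for day 60 against day 5. It gave 12 to 37, 0 to 10 and 0 to 3 for G6 and 0 to 1, 0 to 23 and 0 to 15 for DC101. Group means of the hair gene level moved by less than the SD of their arrays under both offsets, no filter, quantile normalization and the mean of probe sets. Of 673 values of named genes under the other alternatives, 508 kept direction and call, 164 lost the call and 1 turned. Of the 69 called results of named genes, 13 kept the call under every alternative run. No paired analysis was possible because no title number is shared between groups. The causes were not tested.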
